A study of Saccharomyces cerevisiae with 36 samples.

Results

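UWO.S05.22-7 is one of 6 wild strains of the budding yeast Saccharomyces cerevisiae whose transcriptomes were sequenced in 3 media, and its level of each gene in YPD is described here against the other 5 strains. The comparison took all 2 YPD libraries of UWO.S05.22-7 and all 10 YPD libraries of the other 5 strains, out of 36 libraries in the series, and every gene whose mean over these 12 libraries was at least 1 RPKM (reads per kilobase of gene, scaled to library size). That left 5942 of 6717 features. The last features left out were YAL064W-B and RRT15, both at 0.996 RPKM, and the first kept was YOL079W at 1.0003 RPKM.

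Per the labels, UWO.S05.22-7 in YPD is a wild strain resistant to SynH, a synthetic plant hydrolysate. The strains it is set against, also wild and grown in YPD, were Y7568 and YPS128 (resistant), NCYC3290 (medium) and K11 and NCYC361 (sensitive), with 2 replicates of every strain. No deletion, transgene or drug is named for any group. YPD is a rich laboratory medium with glucose. Cells grew for at least 3 generations to an optical density (OD600) near 0.5, and RNA was extracted with hot phenol and depleted of ribosomal RNA. The same strains in SynH and in SynH -HTs, the hydrolysate medium without its toxins, served only to show whether a YPD difference was also there in other libraries. The labels give neither ploidy nor genome sequence of these strains.

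Wild isolates of budding yeast differ from one another both in which genes they carry, mostly near chromosome ends, and in how strongly they express shared genes. Some pathways are controlled by dedicated activators: Aro80 turns on the breakdown of aromatic amino acids, Lys14 the synthesis of lysine, and Aft1 and Aft2 the uptake of iron. The cell wall is a glucan and chitin scaffold covered by mannoproteins, and its genes respond to wall stress through the kinase pathway that ends in Rlm1.

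Reads in genes ranged over the YPD libraries from 2578705 to 7306007, with 2616596 and 5290483 in replicates 1 and 2 of UWO.S05.22-7. The rank correlation between the 2 UWO.S05.22-7 libraries was 0.984 (Spearman's rho over 5942 genes, a description in which genes are not replicates). Their correlation with the libraries of other strains was 0.949 to 0.961 for YPS128, 0.941 to 0.957 for NCYC3290, 0.941 to 0.952 for Y7568, 0.884 to 0.894 for K11 and 0.79 to 0.834 for NCYC361. NCYC361 stood apart: over the genes tested its libraries had median log2 RPKM of 4.80 and 4.82, against 3.72 to 4.29 in the libraries of K11, NCYC3290, Y7568 and YPS128. The all-gene median difference of UWO.S05.22-7 from the other strains was -0.17, and list medians below are given relative to that median. For many results that rest on NCYC361, though not for every gene, values are also given without it.

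Against the spread between strains, no gene passed. With the 6 strain means as units, limma called 0 of 5942 genes (0.0% of genes) at an adjusted p of 0.05, and 61 genes had an unadjusted p under 0.05. The genes nearest the threshold were ARR1, with an adjusted p of 0.0576, and TDA8, with 0.0892. Leaving NCYC361 out let 4 genes pass (0.0673% of genes): TDA8 and ARO9 were higher (0.0337%), and ARR1 and PST1 were lower (0.0337%), with limma adjusted p-values of 0.017 for TDA8, 0.0161 for ARO9, 0.0161 for ARR1 and 0.038 for PST1.

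Against the spread between replicate libraries, many genes passed. The limma fit with libraries as units called 1651 genes (27.8%), 403 higher (6.78%) and 1248 lower (21.0%). That split depended on the scaling: with library medians aligned it was 1123 higher and 564 lower, and with quantile normalization 632 higher and 558 lower. Genes called in the same direction under all 3 scalings numbered 363 higher (6.11% of genes) and 479 lower (8.06%), and these are the genes counted in the lists below. Of these, 285 (4.8% of genes) and 402 (6.77%) were also called the same way with NCYC361 left out. With only replicate 2 of UWO.S05.22-7 the counts under 3 scalings were 148 higher and 249 lower, and with only replicate 1 they were 213 and 311. In a narrower set, both UWO.S05.22-7 libraries lay outside the range of all 10 others for 139 genes above (2.34%) and 293 below (4.93%). Both conditions held for 115 genes above (1.94%) and 178 below (3.0%). A library-level call shows that UWO.S05.22-7 differs from the average of these 5 strains beyond the replicate spread pooled over all 6 strains. It does not set UWO.S05.22-7 apart from strains in general, and the same fit called 1108 genes for NCYC3290, 1504 for Y7568, 2526 for K11, 2856 for YPS128 and 4497 for NCYC361, in comparisons that share all 12 libraries. Below, "library fit" names this test, and every adjusted p from it is limma's, adjusted over 5942 genes.

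**Figure D1:**
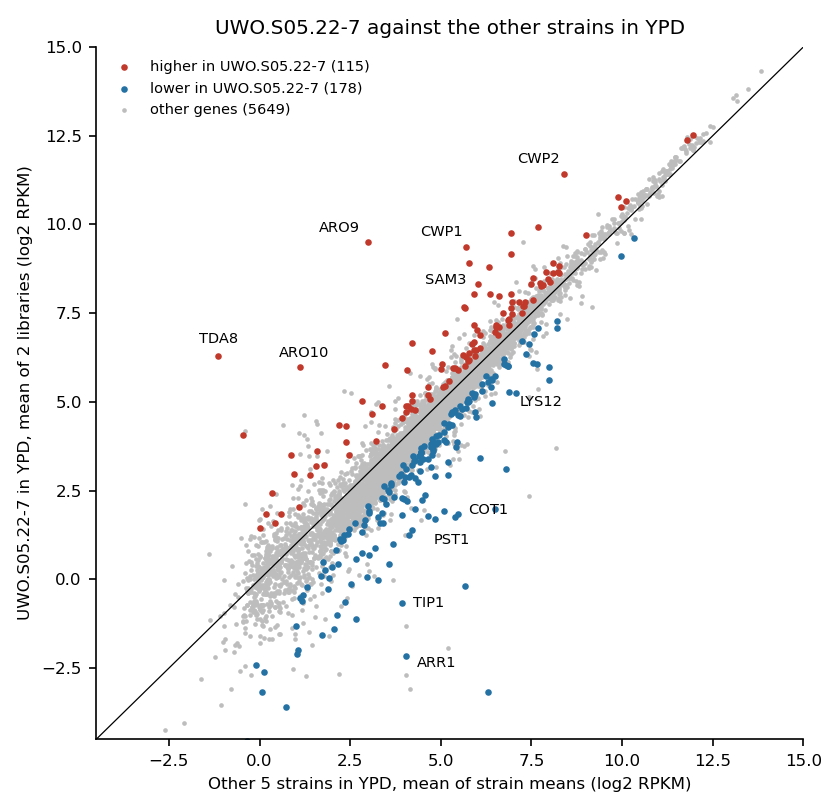
Mean log2 RPKM of each gene in UWO.S05.22-7 in YPD (vertical, 2 libraries) against the mean of the other 5 strain means (horizontal), with the line of equality. Red marks the 115 genes called higher and blue the 178 called lower in UWO.S05.22-7 under all 3 scalings whose 2 libraries also lay outside the range of the other 10; TDA8, ARO9 and ARO10 lie above the line by 7.43, 6.52 and 4.85, and ARR1 and TIP1 below it by -6.19 and -4.60.

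ARO9 and ARO10, enzymes of aromatic amino acid breakdown, were far higher in UWO.S05.22-7. The set of 6 genes they belong to was added to the lists after its values were seen. ARO9 encodes aromatic aminotransferase II, which starts the breakdown of phenylalanine, tyrosine and tryptophan, and ARO10 encodes the decarboxylase that follows it on the way to fusel alcohols. Both are known targets of Aro80, and their upstream regions are shown because the 2 genes with the highest differences in this pathway both hold a pair of CCG triplets in the spacing of the known Aro80 site. The sequences are bases 300 to 101 before the start codon, 5′ to 3′ on the + strand of the RefSeq R64 genome, chrVIII:375409-375608 for ARO9 and chrIV:1233918-1234117 for ARO10. Capitals mark matches to CCGNNNNNNNCCG on either strand.
ARO9: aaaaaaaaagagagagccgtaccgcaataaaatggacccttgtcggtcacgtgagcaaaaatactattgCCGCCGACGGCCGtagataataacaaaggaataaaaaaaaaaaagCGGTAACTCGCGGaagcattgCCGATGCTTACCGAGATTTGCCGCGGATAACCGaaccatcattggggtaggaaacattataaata
ARO10: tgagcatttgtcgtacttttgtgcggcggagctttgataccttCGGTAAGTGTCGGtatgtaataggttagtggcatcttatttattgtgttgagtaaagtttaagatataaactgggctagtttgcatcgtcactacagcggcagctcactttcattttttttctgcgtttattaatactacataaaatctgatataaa

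Within 300 bases before the start codon, ARO9 held 5 matches, some of which overlap, 133 to 231 bases before the start, and ARO10 held 1, 245 to 257 bases before it. ARO80 itself held 1 match and ESBP6 held 0. Of 6007 upstream windows of that length in R64, 163 (2.71%) held at least 1 match on either strand. The sequence is that of the reference strain and not of UWO.S05.22-7, and a match of letters is not a measured site.

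ARO9 stood at 9.60 and 9.39 log2 RPKM in UWO.S05.22-7. In the other strains it was 1.35 and 1.81 in K11, 2.28 and 1.56 in NCYC3290, 6.14 and 6.33 in NCYC361, 2.62 and 2.93 in Y7568, and 2.40 and 2.36 in YPS128. Both UWO.S05.22-7 libraries were above all the others, and NCYC361 lay between them and the remaining 4 strains. The difference was 6.52 (91.6-fold), with an SE of 1.59 from the spread between strains (unadjusted p = 0.00451). The library fit gave an SE of 0.19 and an adjusted p of 3.73e-11.

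ARO10 showed the same order of strains. Its log2 RPKM was 6.25 and 5.70 in UWO.S05.22-7 and 4.86 and 5.18 in NCYC361, and in the other 8 libraries it lay between -1.33 and 1.36. The difference was 4.85 (28.9-fold; SE 1.98 between strains, unadjusted p = 0.0441; library fit adjusted p = 2.86e-07). ESBP6, which encodes a protein similar to monocarboxylate permeases, was at 6.07 and 5.71 in UWO.S05.22-7, against a lowest, median and highest value of 3.17, 3.74 and 5.29 in the other 10 libraries. It differed by 1.81 (3.51-fold), and the groups did not overlap.

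The activator and the remaining enzymes of the pathway were not called higher. ARO80 was at 2.63 and 2.40 log2 RPKM in UWO.S05.22-7, inside the range of 1.38 to 4.39 of the other libraries, with a difference of -0.06. BAT2, a branched-chain aminotransferase, differed by -0.05. ARO8, the aminotransferase that mainly serves synthesis, was at 7.28 and 7.23 in UWO.S05.22-7 against 7.26 to 8.21 elsewhere, and its difference of -0.51 passed the library fit (adjusted p = 0.00088) on the deposited values but not with medians aligned. Of the 6 genes, 3 were called higher under all 3 scalings and 0 lower, also with either UWO.S05.22-7 library left out. Of all genes, 6.11% were called higher. The median difference of the set was 1.05 above that of all genes. Since the set was added after its values were seen, its count and median describe these genes and are no test of the pathway.

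**Figure D2:**
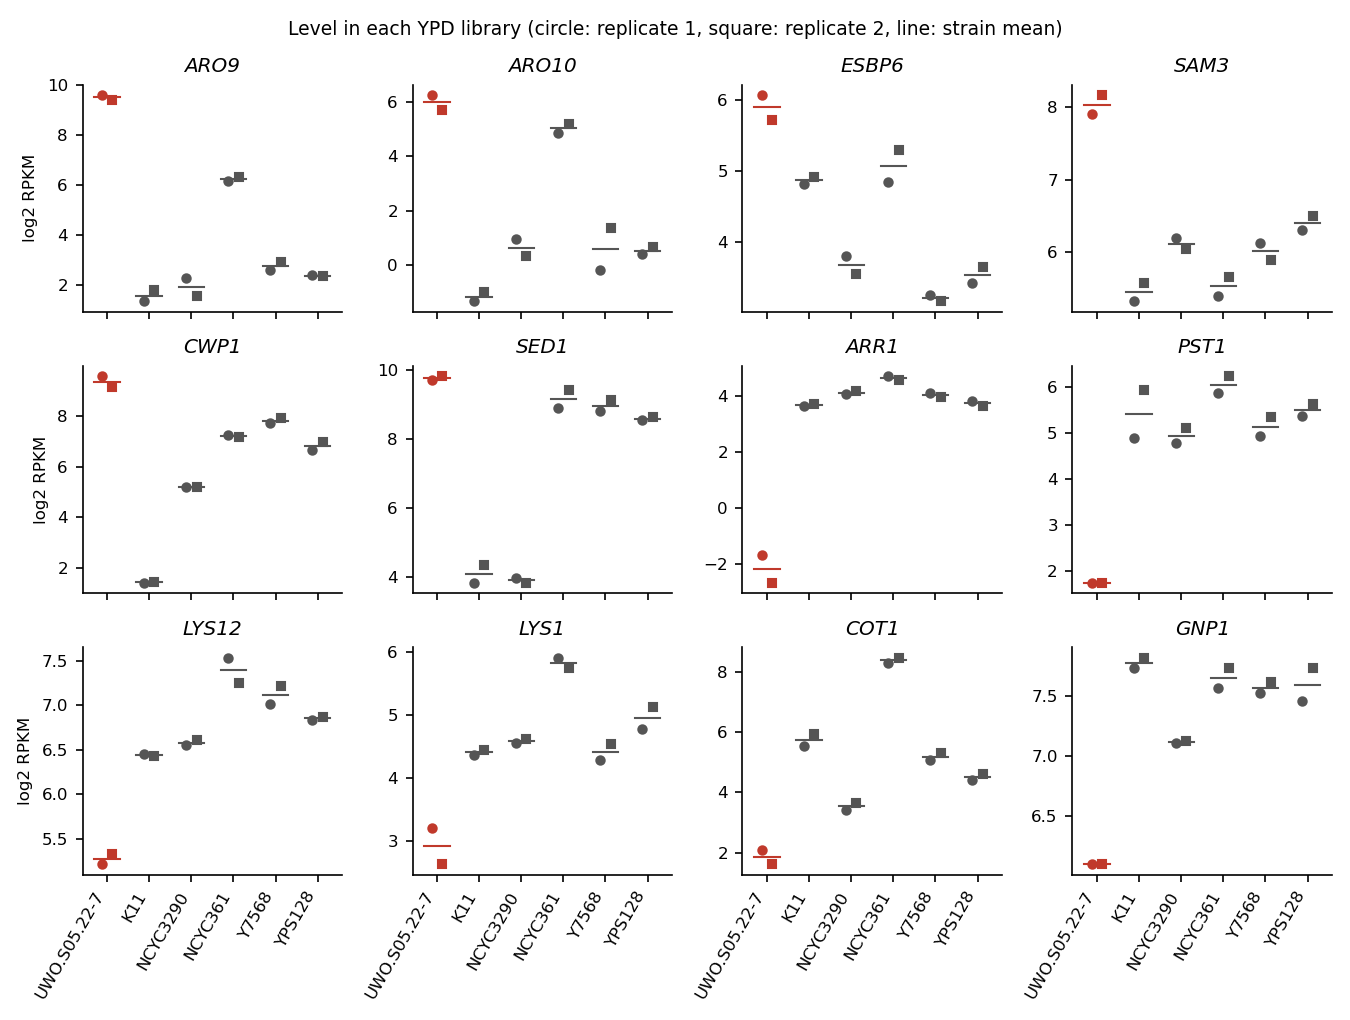
Log2 RPKM of 12 genes in each YPD library, with UWO.S05.22-7 at the left (red) and the other 5 strains to its right (grey); circles are replicate 1, squares replicate 2 and lines strain means, and each panel has its own vertical scale. ARO9, ARO10, ESBP6, SAM3, CWP1 and SED1 are higher in both UWO.S05.22-7 libraries than in any other library, and ARR1, PST1, LYS12, LYS1, COT1 and GNP1 are lower.

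The neighbouring arsenic resistance genes ARR1, ARR2 and ARR3 gave no reads in UWO.S05.22-7. ARR1 encodes the activator that senses arsenic, ARR2 an arsenate reductase and ARR3 a plasma membrane pump for arsenite, and they lie 9.03, 8.39 and 6.93 kb from an end of chromosome XVI in R64. ARR1 had 0 reads in both UWO.S05.22-7 libraries in YPD, against 58 to 124 reads (median 83) in the other 10. With 0 counted as 3 reads in each library, its level was at least 17.5-fold lower in UWO.S05.22-7. The deposited log2 values differ by -6.19, a size that depends on the 1 read added before the log. ARR2 and ARR3 are weakly read everywhere: ARR2 had 0 and 0 reads in UWO.S05.22-7 against 2 to 25 in the others, and ARR3 had 0 and 0 against 3 to 14.

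ARR1 also had 0 reads in all 4 UWO.S05.22-7 libraries of the hydrolysate media, against 25 to 97 reads in the other strains in SynH -HTs and 54 to 716 in SynH. Depth was unequal in SynH: replicate 2 of YPS128 held 32838987 reads in genes, and the other libraries 2205293 to 8047447. On the log2 RPKM scale the highest ARR1 value of the other strains was 4.75 in SynH and 4.69 in YPD. In the hydrolysate libraries, which the YPD comparison did not use, ARR1 was the 1 gene that passed against the spread between strains: 1 of 5942 genes (0.0168%) in SynH -HTs (difference -6.51, limma adjusted p = 0.00712) and 1 of 5942 (0.0168%) in SynH (difference -6.65, limma adjusted p = 0.00099). Whether the 3 genes are in the genome of UWO.S05.22-7 was not tested, since RNA reads alone cannot tell a missing gene from a silent one or from one too diverged to align.

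The mirror case was TDA8, an open reading frame of unknown function 13.4 kb from an end of chromosome I. It had 211 and 108 reads in the UWO.S05.22-7 libraries in YPD and 0 reads in each of the 10 other libraries, which puts it at least 44.3-fold higher in UWO.S05.22-7 with 0 counted as 3 reads per library. The bound is 18.0-fold from replicate 2 alone and 70.6-fold from replicate 1 alone. On the deposited scale it stood at 7.28 and 5.32 log2 RPKM. In SynH -HTs it had 13 and 10 reads in UWO.S05.22-7 against 0 or 1 elsewhere, and in SynH 6 and 0 reads against 0 to 4, at the unequal depth given above. By the rule of at most 3 reads on one side and at least 30 in every library of the other, TDA8 was the 1 gene present in UWO.S05.22-7 alone, and ARR1 and YMR321C were the 2 genes missing there alone. YMR321C had 1 and 0 reads in UWO.S05.22-7 against 39 to 371, and as it shares near-identical sequence with another gene its count is uncertain.

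Beyond these, the genes with the smallest p-values against the spread between strains were SAM3, GPX2 and YER097W on the higher side. SAM3, the permease for S-adenosylmethionine, was at 7.90 and 8.17 log2 RPKM in UWO.S05.22-7 against 5.33, 5.97 and 6.50 (lowest, median, highest) in the other libraries. Its difference of 2.13 (4.38-fold; SE 0.42 between strains, unadjusted p = 0.00135, library fit adjusted p = 2.41e-08) stands against an SD of 0.40 between the other 5 strain means.
GPX2, a glutathione peroxidase induced by oxidative stress, was at 8.50 and 9.13 in UWO.S05.22-7 against 4.89, 6.55 and 7.09, a difference of 2.49 (5.63-fold, unadjusted p = 0.0105). YER097W, a feature with no match in R64, was higher by 2.20 (unadjusted p = 0.0151).

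On the lower side they were PST1, MRPL44 and GNP1. PST1, a secreted wall protein that is a common marker of wall stress, was at 1.75 and 1.74 log2 RPKM in UWO.S05.22-7 against 4.78, 5.36 and 6.23 in the others. It was 12.6-fold lower (difference -3.66, SE 0.46 between strains, unadjusted p = 8.84e-05, limma adjusted p = 0.175). GNP1, a glutamine permease, was at 6.10 and 6.11 in UWO.S05.22-7 against 7.11, 7.59 and 7.82, which is 2.71-fold lower (unadjusted p = 0.00292). MRPL44, a protein of the mitochondrial ribosome, was at 2.92 and 3.43 against 4.39, 4.71 and 5.26, 2.95-fold lower (unadjusted p = 0.00289) on 7 and 22 reads.

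Cell wall genes leaned higher, with PST1 the clearest exception. Of 18 tested genes of the wall integrity list, 8 were called higher and 2 lower under all 3 scalings, and 8 lay above and 1 below all other libraries. Without replicate 1 of UWO.S05.22-7, 7 were called higher and 3 lower, and without replicate 2 the counts were 8 and 2. With NCYC361 left out, the 8 and 1 of the 2 were also called. The list's median stood 0.28 above that of all genes. By p, its leading members after PST1 were CHS3 (chitin synthase III), CIS3 (a covalently bound mannoprotein) and CRH1 (a chitin transglycosylase), which differed by 0.78, 0.84 and 0.79, or 1.72-, 1.79- and 1.73-fold. FKS1, the main glucan synthase, and GAS1, a glucanosyltransferase, were among those above all other libraries, by 0.69 and 0.55. For GAS1 the library call is lost without NCYC361 and K11, where the difference is 0.19.

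For the abundant wall mannoproteins CWP1, SED1 and CWP2, the other strains also differed widely among themselves. CWP1, a mannoprotein linked to wall glucan, was at 9.58 and 9.15 log2 RPKM in UWO.S05.22-7, against 1.40 and 1.43 in K11, 5.20 and 5.18 in NCYC3290, 7.25 and 7.17 in NCYC361, 7.74 and 7.93 in Y7568, and 6.67 and 6.99 in YPS128. UWO.S05.22-7 was highest and K11 far below the rest, and the difference of 3.67 (12.7-fold) had an unadjusted p of 0.131 against the spread between strains. SED1, a structural mannoprotein, was at 9.71 and 9.82 in UWO.S05.22-7, against a highest value of 9.44 in NCYC361 and values of 3.82 to 4.34 in K11 and NCYC3290. CWP2 was at 11.48 and 11.37 against 5.73 to 10.50. TIP1 and TIR2, mannoproteins induced by cold and low oxygen, were lower. TIP1 had 1 read in each UWO.S05.22-7 library against 5 to 399 reads in the others, and TIR2 had 1 and 4 reads against 3 to 115.

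Lysine synthesis was lower at 4 of its 9 tested genes. LYS12, LYS1, LYS2 and LYS20 were called lower under all 3 scalings, 0 genes were called higher, and all 4 lay below every other library; the counts were the same with either UWO.S05.22-7 library left out. LYS12 (homoisocitrate dehydrogenase) was at 5.215 and 5.331 log2 RPKM in UWO.S05.22-7 against 6.43, 6.86 and 7.54 in the others, 3.04-fold lower (difference -1.61, SE 0.40 between strains, unadjusted p = 0.00529; library fit adjusted p = 6.98e-08). LYS1 (saccharopine dehydrogenase, the last step) was at 3.21 and 2.64 against 4.29, 4.59 and 5.91, 3.78-fold lower.
LYS2 (the reductase of aminoadipate) was at 5.28 and 5.31 against 5.80, 6.09 and 6.55, 1.79-fold lower. LYS20 (homocitrate synthase, the first step) was at 5.39 and 5.14 against 5.49 to 7.94, 3.49-fold lower, with K11 the nearest strain. LYS20 and LYS21 are near-identical, so the split of reads between them is uncertain, and LYS21 differed by 0.01. The activator LYS14 differed by 0.02, and LYS4, LYS5 and LYS9 by -0.22, -0.37 and -0.35. For LYS4 only NCYC361 was lower, at 4.40 and 3.79 against 6.22 and 5.98 in UWO.S05.22-7. Without NCYC361 its difference was -0.77. The list's median was 0.20 below that of all genes, and 0.71 below without NCYC361.

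Arginine genes were called in both directions. Of 15 tested, 7 were called lower and 2 higher, and the lower calls were 5 without replicate 1 and 2 without replicate 2 of UWO.S05.22-7. ARG1 (argininosuccinate synthase) was at 2.47 and 1.41 log2 RPKM in UWO.S05.22-7 against 3.35, 4.37 and 8.26 in the others, below all of them, with a difference of -3.15 (library fit adjusted p = 1.26e-07; unadjusted p = 0.0777 between strains) on 24 and 23 reads. ORT1 (the mitochondrial ornithine carrier) differed by -0.93. It was at 2.99 and 2.80 in UWO.S05.22-7 against a lowest value of 2.93 in the others, so the ranges overlapped. CAR1 (arginase) and CAR2 (ornithine transaminase), the breakdown enzymes, differed by 0.98 and 0.84, also with overlapping ranges in YPD. The list's median was 0.47 below that of all genes, and 0.80 below without NCYC361.

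Methionine and sulfur genes leaned higher. Of 28 tested, 12 were called higher and 0 lower, of which 9 were also called with NCYC361 left out, and the median was 0.57 above that of all genes. Without replicate 1 of UWO.S05.22-7, 10 were called higher, and without replicate 2, 5 were. UWO.S05.22-7 was not the highest strain by the list's summed level. That was 2927 and 3612 RPKM there, 3874 and 4099 in K11 and 1182 to 2357 in the rest. SAM3 and MUP1, the high-affinity methionine permease, were the 2 above all other libraries, and MUP1 was at 7.97 and 8.14 log2 RPKM against 5.91, 6.88 and 7.76 (2.17-fold). MUP3, a low-affinity permease, and CYS3, which makes cysteine from cystathionine, differed by 1.05 and 0.64. MET6, methionine synthase, differed by 1.36, and by 0.58 without NCYC361, but ranged from 3.12 to 9.60 in the other strains. K11 was above UWO.S05.22-7 for MET6, at 9.47 and 9.60 against 7.77 and 7.88.

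Iron genes leaned lower, and by less with NCYC361 left out. Of 30 tested genes of the iron regulon, 22 were called lower and 2 higher, and 20 of the 22 were also called lower with NCYC361 left out. With either UWO.S05.22-7 library left out, 17 and 22 were called lower. The median was 1.01 below that of all genes with NCYC361 and 0.61 below without it. COT1, a vacuolar transporter of zinc and cobalt, was at 2.09 and 1.62 log2 RPKM in UWO.S05.22-7 against 3.42, 5.17 and 8.46, 12.2-fold lower with all strains (difference -3.61, and -2.89 without NCYC361). SIT1, the ferrioxamine permease, was at 4.98 and 6.24 against 6.54, 7.46 and 10.54. FRE4, a ferric reductase, differed by -1.96, at 3.10 and 3.66 in UWO.S05.22-7 against a lowest value of 2.65 in the others. CTH1, which degrades messages of iron-using proteins, differed by -0.54 and lay below all other libraries. It was not called under all 3 scalings.

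UWO.S05.22-7 was not alone at the low end of this regulon. FIT3, a wall mannoprotein that helps retain siderophores, was at 3.45 and 3.97 in UWO.S05.22-7, 3.55 and 2.79 in NCYC3290, 5.76 and 5.85 in YPS128, 8.34 and 8.71 in Y7568, 8.93 and 8.86 in K11, and 14.35 and 14.61 in NCYC361. UWO.S05.22-7 and NCYC3290 overlapped, and NCYC361 was above all others. FIT2 and ARN2 had the same pattern, with ARN2 at 2 and 1 reads in UWO.S05.22-7 and between 0 and 27893 in the others. ENB1, the enterobactin permease, and FET4, the low-affinity iron transporter, were the 2 called higher; ENB1 lost its call with log2(RPKM + 1), where its difference was 0.0044. ENB1 was at 4.91 and 5.15 in UWO.S05.22-7, between K11 and NCYC3290 (-3.82 to -2.77) and the other 3 strains (5.67 to 12.10).

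General stress genes leaned higher, and unequally so between the 2 UWO.S05.22-7 libraries. Of 34 tested, 12 were called higher and 3 lower, and the median was 0.61 above that of all genes. With NCYC361 left out, the 12 and 1 of the 3 were also called, and the median was 1.26 above. Without replicate 1 the counts were 5 and 2, and without replicate 2 they were 12 and 0. The list's summed level was 2338 and 1341 RPKM in UWO.S05.22-7, but 4206 and 7119 in NCYC361. It was 1272 and 1421 in K11 and 288 to 711 in the rest. CTT1 (cytosolic catalase) was at 4.20 and 3.03 log2 RPKM in UWO.S05.22-7 against 0.45, 1.48 and 2.68. HOR7, a small protein induced by osmotic stress, was at 10.24 and 9.61 against 5.92, 8.05 and 9.19, and YGP1, a secreted glycoprotein of starved cells, at 6.52 and 5.54 against 0.76, 3.45 and 5.50. HSP12, a membrane-protecting hydrophilin, was at 5.01 and 3.71, against 4.28 and 5.15 in NCYC361 and -1.38 to 1.28 in the rest.
In each of these genes replicate 1 was the higher of the 2 libraries. Over the list, 25 of 34 genes were higher in replicate 1, with a median difference of 0.59 between the libraries after removing that of all genes. Of 8 tested genes of flocculins and adhesins, wall proteins that bind cells together, 6 were also higher in replicate 1. Under all 3 scalings 3 of the 8 were called higher (6.11% of all genes were) and 0 lower. Only 1 lay above all other libraries, and the list's median was 0.20 below that of all genes. Among the 8, FLO1 was at 5.09 and 3.06 in UWO.S05.22-7 against -2.16 to 2.44, and FLO5 at 5.10 and 3.26 against -4.67 to 5.21. TDA8 also had its higher level in replicate 1. FLO1 shares near-identical sequence with another gene, so its level is uncertain. What part the difference between these libraries has in the stress and flocculin results was not tested.

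**Figure D3:**
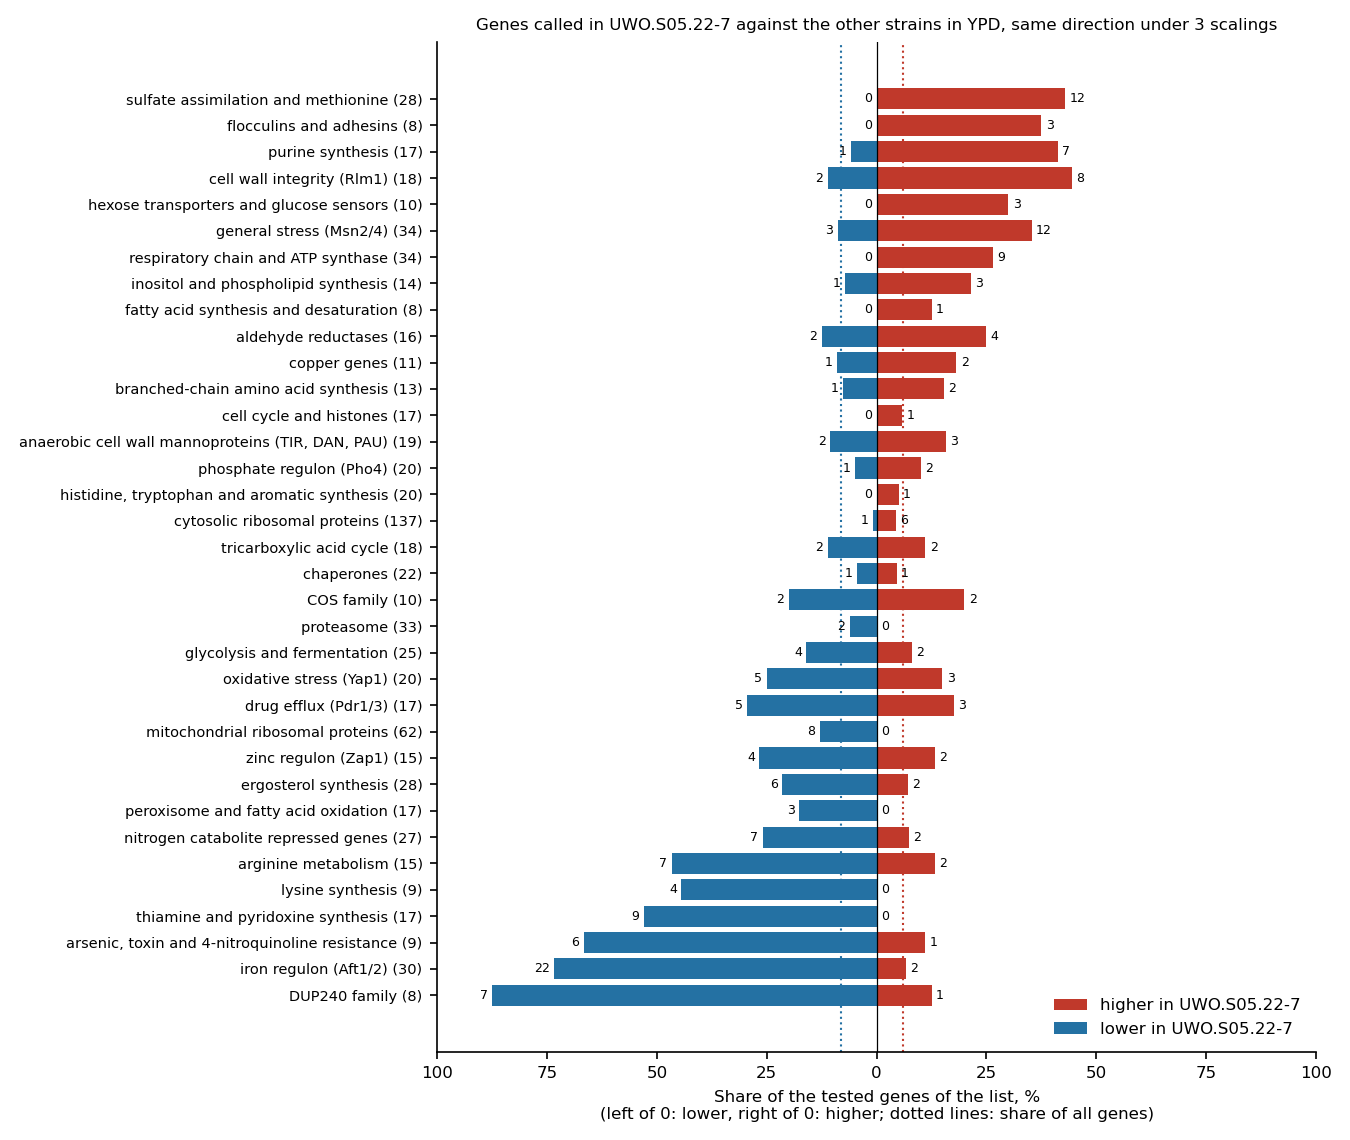
Share of the tested genes of each list (number in parentheses) called higher (red, right of 0) or lower (blue, left of 0) in UWO.S05.22-7 under all 3 scalings, with counts at the bar ends and dotted lines at the share of all genes, 6.11% higher and 8.06% lower. Lists with at least 8 tested genes and at least 1 call are drawn; sulfur, wall, purine and stress lists extend to the right, and iron, lysine, arginine and thiamine lists to the left.

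Other lists also held calls. Mitochondrial ribosomal proteins gave 8 of 62 called lower and 0 higher, 14 below all other libraries, and a median 0.27 below that of all genes (0.44 below without NCYC361); 2 were called lower without replicate 1 and 7 without replicate 2. MRPL27, RSM10 and MRPL50 differed by -1.65, -0.99 and -1.06, the last not called with quantile normalization. Purine synthesis gave 7 of 17 higher and 1 lower, and 3 and 5 higher without replicate 1 and without replicate 2. With NCYC361 left out, 6 of the 7 were also called higher, and the median went from 0.36 to 0.24 above that of all genes. The summed level was 4398.2 and 4151.3 RPKM in UWO.S05.22-7, 4352.3 and 4360.5 in K11 and 4397 and 3760.2 in YPS128. In NCYC361 it was 2429 and 2060. ADE17, which makes inosine monophosphate, was at 8.08 and 7.98 log2 RPKM against 3.28, 6.94 and 7.70, with NCYC361 lowest. ADE6 and ADE4 were also above all others, by 0.77 and 0.56. Leaving NCYC361 out took the difference of ADE17 from 1.68 to 0.93, and those of ADE6 and ADE4 to 0.48 and 0.38.
Ergosterol synthesis gave 6 of 28 lower and 2 higher, and 4 and 3 lower without replicate 1 and without replicate 2. ERG6, ERG3, ERG27 and ERG25, enzymes of the late sterol steps, were below all other libraries, by -0.93, -0.85, -1.01 and -0.71. Thiamine genes gave 9 of 17 lower and 0 higher, with 0 outside the other libraries and a median 0.96 below that of all genes. THI4, which makes the thiazole of thiamine, was at 0.19 and -0.01 log2 RPKM in UWO.S05.22-7, against 11.85 and 11.48 in K11, 3.77 and 4.66 in NCYC361, and -0.48 to 0.18 in NCYC3290, Y7568 and YPS128. THI4 and THI20 were called lower, but without NCYC361 and K11 their differences were 0.14 and 0.16.

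Mating and meiosis genes gave few calls. The summed level of the 7 tested haploid-specific genes was 13.9 and 10.2 RPKM in UWO.S05.22-7, against 7.85 to 27.1 in K11, NCYC3290, Y7568 and YPS128 and 74.9 and 79.7 in NCYC361. Of the 7, NEJ1 and STE5 were called lower and 0 higher, and with NCYC361 left out 1 of these 2 calls remained. Without that strain the difference of STE5 went from -1.28 to -0.80, and that of NEJ1 from -1.53 to -1.54. Among 5 MATa-specific genes AGA2 was called higher and STE2 lower, the call for STE2 being reversed in sign without NCYC361 and K11 (0.09). The 3 MATalpha-specific genes gave 0 calls, and of 5 early meiosis genes RED1, a protein of the meiotic chromosome axis, was called lower. In a bulk culture, fewer cells that express a gene and less RNA per cell cannot be told apart.

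Called genes were more frequent near chromosome ends. Within 30 kb of an end, 13.3% of 264 tested genes were called higher and 21.2% lower, against 5.74% and 7.74% of 5299 genes farther in. The difference had an SD over genes of 1.49 near the ends and 0.584 elsewhere. Near-identical copies, whose reads are hard to assign, made up 31 of the 264 genes and 97 of the 5299. Of the DUP240 family of membrane proteins, 7 of 8 tested were called lower and 1 higher, and 5 and 4 were lower without replicate 1 and without replicate 2. With NCYC361 left out, 5 of the 7 were also called lower. Y7568 was lower still: the summed level of the 8 genes was 10.4 and 12.5 RPKM there and 23.5 and 20.3 in UWO.S05.22-7, against 58.5 to 187 in the other strains. No chromosome was shifted as a whole: median differences of the 16 nuclear chromosomes lay between -0.13 (VI) and 0.06 (VIII) relative to all genes.

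Most genes called in YPD had a difference in the same direction in the libraries of the other media, but not every list did. Of the 363 genes called higher, 332 (91.5%) were above the all-gene median in SynH -HTs and 323 (89.0%) in SynH, where 50% of all genes are by construction. Of the 479 called lower, 409 (85.4%) and 406 (84.8%) were below it. The general stress median stood 0.61 above that of all genes in YPD, 0.09 above in SynH -HTs and 0.38 below in SynH. The wall integrity median, 0.28 above in YPD, was 0.57 above in SynH -HTs and 0.07 below in SynH. The iron median, 1.01 below in YPD, was 0.01 below in SynH -HTs and 0.07 below in SynH. The thiamine median, 0.96 below in YPD, was 0.21 above in SynH -HTs and 0.51 above in SynH. Methionine and sulfur genes stayed above (0.57, 1.15 and 0.54), and mitochondrial ribosomal genes below (-0.27, -0.77 and -0.76). In all 3 media, 66 genes had both UWO.S05.22-7 libraries outside the 10 others, 17 above and 49 below. Taken alone, being outside held for 0.841% of genes above and 4.24% below in SynH -HTs, and for 1.26% above and 10.4% below in SynH. The all-gene median difference of UWO.S05.22-7 was -0.53 in SynH -HTs and -0.40 in SynH, against -0.17 in YPD. Neither being outside nor the differences given for single genes are corrected for it. In SynH -HTs, ERG25 and ERG27 differed by -0.66 and -0.82, not far below that median. Among the 17 were ARO9, ARO10, ESBP6, SAM3, GPX2, SUC2 (invertase) and GPD1 (glycerol phosphate dehydrogenase). The 49 included ARR1, ARR2, ARR3, PST1, TIP1, TIR2, COT1, LYS12, LYS20, UTH1 (a wall and mitochondrial protein), BAP2 (a branched-chain amino acid permease), BAT1 (the mitochondrial branched-chain aminotransferase), ERG25, ERG27 and GNP1.

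ARO9 and ARO10 stayed high in hydrolysate, where their medians over the other 10 libraries were also above those in YPD. For ARO9 that median was 2.38 in YPD, 3.61 in SynH -HTs and 6.05 in SynH. Not every strain rose: the ARO9 values of NCYC361 in YPD, 6.14 and 6.33, were above the highest other value in SynH -HTs, 5.90. ARO9 was at 9.88 and 9.94 log2 RPKM in UWO.S05.22-7 in SynH -HTs, against 2.78 to 5.90 in the other strains, and at 9.90 and 9.62 in SynH, against 4.67 to 6.79. BAP2 was farther below the others in hydrolysate, by -3.64 in SynH -HTs and -3.97 in SynH, than in YPD, where the difference was -1.58. The mannoprotein genes CWP1 and SED1 stood closer to the other strains in hydrolysate, while TIP1 and PST1 stayed below them. CWP1 differed by 3.67 in YPD, 1.54 in SynH -HTs and 0.96 in SynH, and SED1 by 2.83, 0.69 and -0.41. The test of a change between media is limma's interaction of strain and medium on strain means, and it called 0 of 5942 genes for SynH -HTs and 3 for SynH, so these shifts of BAP2, CWP1 and SED1 did not pass it.

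**Figure D4:**
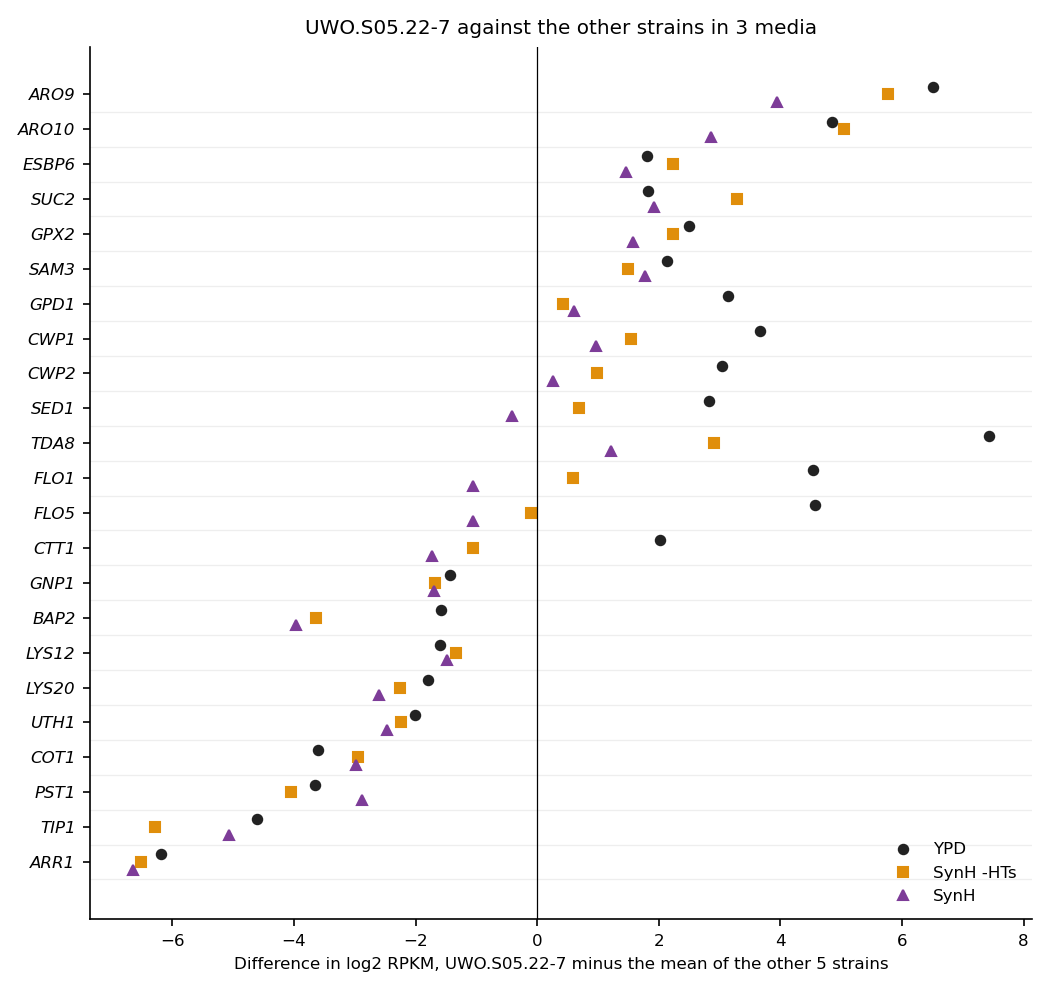
Difference in log2 RPKM between UWO.S05.22-7 and the mean of the other 5 strains for 23 genes in YPD (circles), SynH -HTs (squares) and SynH (triangles). Symbols lie together for ARR1, LYS12, GNP1 and SAM3, and apart for TDA8 (7.43, 2.91 and 1.21), FLO1 (4.53, 0.60 and -1.05) and FLO5 (4.58, -0.10 and -1.05), given in that order of media.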

How the data were processed

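The authors deposited 1 table of log2 RPKM values for 36 libraries; Trimmomatic 0.30, Bowtie2 and HTSeq 0.6.0 are named in the submitters' processing notes, while no source used here gives the genome build or says whether counting used strand. Per the labels' protocols the kit was stranded. The deposited log2 values carry 1 added read, and reads were recovered from them with R64 coding lengths: 6025 features matched R64, 692 did not, and 99.8% of values were whole within 0.05 reads. Reads carry no molecular identifiers, so counts cover sampling error only.

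Differences are UWO.S05.22-7 minus the mean of the other 5 strains. They were tested with limma 3.58.1 in R 4.3.3 (trended prior variance, Benjamini-Hochberg over 5942 genes, threshold 0.05) on 6 strain means, where the lone strain is assumed to vary like the others, and on 12 libraries. The scripts were tested on simulated data. Replicate numbers were not taken as pairs, since no label links them and not every pair of strains correlated: deviations of same-numbered libraries correlated at 0.16 to 0.26 among K11, NCYC3290, Y7568 and YPS128, at 0.00 to 0.10 in pairs with NCYC361, and at -0.16 to -0.11 between UWO.S05.22-7 and the first 4 strains. The labels do not say whether replicates are separate cultures, so p-values from the library fit cover only the spread between these samples.

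Genes named are the 5 smallest p in each direction, up to 4 members of a list by p, and genes read on one side only; other named genes were chosen after their values were seen. Members and lists were chosen with earlier results of these data known. Near-identical copies were found with BLAST 2.17.0 (95% identity over 50% of the length). There were 6 rows that name no gene and these were left out.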

Additional observations from a re-analysis of the deposited data

Results flagged for a closer look

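The difference between UWO.S05.22-7 and the other strains itself differed between media for 3 of 5942 genes, tested with limma's interaction of strain and medium on strain means (SynH minus YPD). For TDA8 the difference in SynH minus that in YPD was -6.23 on the log2 scale (adjusted p = 0.0077). For FLO1 it was -5.58 (adjusted p = 0.0077) and for FLO5 -5.63 (adjusted p = 0.00796). All 3 are higher in replicate 1 than in replicate 2 of UWO.S05.22-7 in YPD, and FLO1 shares near-identical sequence with another gene.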

How the results depend on the processing

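Against the spread between strains in YPD, the count of 0 genes became 1 with log2(RPKM + 1), 2 with median scaling, 2 with no filter on low values, 2 without a trend in the prior variance, 2 with quantile normalization, 1 without YPS128 and 4 without NCYC361; leaving out replicates gave 0 to 2. With libraries as units it was 1651, and with the replicate number as a block 1730; the block moved no count by over 1.5 times within the library fit, and the numbers were not taken as pairs, although same-numbered libraries of 4 other strains deviate together. The 1 gene of SynH -HTs became 270 with libraries as units and 1 to 3 without a replicate; the 1 gene of SynH became 1240, and 1 to 2. The counts of the other strains became 2526 for K11 (3 on strain means), 1108 for NCYC3290 (0), 4497 for NCYC361 (1973), 1504 for Y7568 (1) and 2856 for YPS128 (1).

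In the library fit, chosen in part after seeing the data, the count fell to 1100 without NCYC361 and K11 and lay between 753 and 912 without one UWO.S05.22-7 replicate. Its higher calls, 403, became 1123 with median scaling and 632 with quantile normalization, and 163 to 233 without a replicate; its lower calls, 1248, became 564, 558, 643 without both strains, and 590 to 679 without a replicate. Genes called under 3 scalings numbered 148 to 213 higher and 249 to 311 lower without one of these libraries. STE2, THI4 and THI20 changed sign without NCYC361 and K11 (0.0885, 0.14 and 0.16). Over 81 named genes, 1262 of 1281 values against the spread between strains and 630 of 648 of the library fit kept their sign. The cause of these changes was not tested. Genes with few reads are limited by depth, and 0 reads in UWO.S05.22-7 allows up to 3.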
